A study of Mus musculus with 15 samples.

Results

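The comparison of 135 min after Shield-1 removal with control was made on 8 of the 15 samples of the series, namely the 3 samples labelled 135 min of unfolded DD stress and the 5 samples labelled with no stress at time 0. All of them came from 1 engineered line: NIH3T3, fibroblasts derived from mouse embryos, with a stable DD-sfGFP transgene. In this fusion superfolder GFP is joined to a destabilizing domain (DD), an FKBP mutant that needs its small-molecule ligand Shield-1 (S1) in order to fold. According to the study's methods the cells were a population sorted by flow cytometry for high GFP after stable insertion of the transgene, every culture was kept in S1, and withdrawal was done with a purified FKBP mutant protein that was added to take up the ligand. The controls carried the same transgene and kept their S1. The loss of S1, the unfolding of the DD and the presence of the added protein came together in the 135-min cultures and cannot be told apart in these samples. For cells with GFP alone, the study reported no significant changes of the transcripts it measured by quantitative PCR after S1 withdrawal. It also reported similar but weaker changes with another DD, whose ligand was washed out. Neither line is among these 15 samples. The other 7 samples, 3 at 45 min and 4 at 405 min after S1 removal, are used for the spread of the fit and for a comparison of times. The labels do not say whether replicates came from separate cultures, so p-values measure the spread between these samples, which may be technical.

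Cells meet unfolded protein in the cytosol and nucleus with several transcription programmes. The factor HSF1 induces heat shock proteins, chaperones that bind exposed hydrophobic stretches and help proteins refold or pass them on to the proteasome. NRF2 induces enzymes that make glutathione and detoxify reactive compounds, and p53 induces genes of cell cycle arrest, apoptosis and DNA repair. Fibroblasts in culture also keep up a set of growth-responsive transcripts, such as those of the immediate-early, TGF-beta and YAP pathways.

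Total counts lay between 6652539 and 28696476 in the 8 samples. Control replicate 3 was the shallowest. Its genes, and those of control replicate 2, were most often the extreme controls: of all tested genes, 34.3% were highest in control replicate 3 and 35.9% in control replicate 2. Levels also followed transcript GC content to a different extent in each library. Per 10 percentage points of GC in the exons, log2 CPM changed by 0.541 in control replicate 2, between -0.716 and -0.287 in the other 4 controls, and between -0.216 and -0.111 in the 3 samples at 135 min, so this slope moved with the group. The labels name 1 library kit for all samples, whereas the study's methods describe a second preparation as well, and which library had which is not given in the sources used here. CPM here is the read count of a gene scaled to a common library size by the TMM method. The 11 fibroblast markers examined, among them Col1a1, Vim and Thy1, were all detected. Lum was near the floor, at 0.598 to 3.66 CPM in controls and 0.122 to 1.31 CPM at 135 min. Together the 11 summed to between 15767 and 18721 CPM in controls and between 16943 and 18168 CPM at 135 min. Pdgfrb alone of them changed, and it fell (log2 fold change -0.92 ± 0.21 SE, edgeR adjusted p = 0.0418). The 6 epithelial, 5 endothelial and 6 haematopoietic markers summed to at most 3.83 CPM in any of the 8 samples.

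Of the 10276 genes that had a count above 0 in each of the 15 samples, 58 rose and 92 fell at 135 min (edgeR quasi-likelihood test, Benjamini-Hochberg adjusted p under 0.05). The rising genes were 0.564% and the falling genes 0.895% of those tested. In each of these 150 genes the 3 samples at 135 min all lay beyond all 5 controls. Genes called by a small p-value tend to separate in this way, so this adds little to the calls. The share of all tested genes that separated so was not counted. Changes were moderate: the median absolute log2 fold change was 1.24 for rising genes, with 11 genes at 2 or more, and 1.32 for falling genes, with 14 at 2 or more. The median over all tested genes was -0.06. The counts depended on single libraries, and leaving out control replicate 1, 2 or 4 gave 31, 115 or 34 rising and 49, 182 or 53 falling genes. Leaving out control replicate 5 gave 45 and 55, and leaving out any 1 of the 135-min replicates gave 20 or 21 rising and 22 to 25 falling genes. With the GC-dependent library set as a covariate 314 genes rose and 501 fell, and these included all 58 and all 92. The 3 samples at 135 min and 4 of the 5 controls were of the same set. This covariate therefore does not remove the difference in GC slope between them. Of the 58 and 92 genes, 51 and 86 were called with a GC correction, and 11 and 20 with the replicate number as a block. When only the 8 samples entered the fit, 16 and 24 genes were called.

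**Figure D1:**
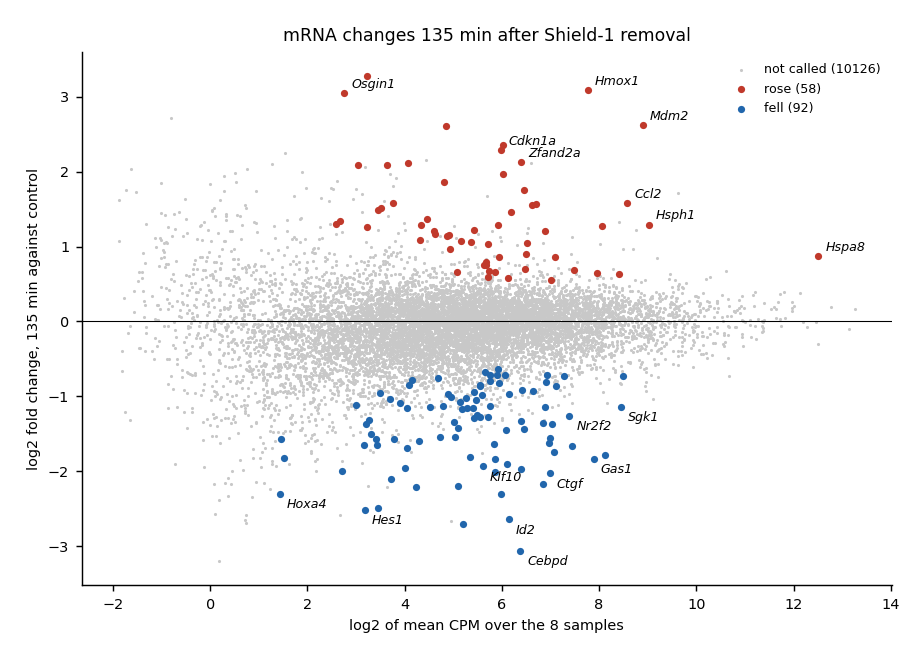
Log2 fold change at 135 min against control (vertical axis) plotted against the log2 of the mean CPM over the 8 samples (horizontal axis) for the 10276 tested genes. Red points are the 58 genes that rose, blue points the 92 that fell and grey points the others, and Hspa8 is the most abundant gene called, at 4456 CPM in controls and 8132 CPM at 135 min.

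Heat shock genes rose as a small group of cytosolic and nuclear chaperones and their partners. Of 29 tested genes of the heat shock list, 7 rose and none fell, and all 29 had a positive log2 fold change, with a median of 0.39 against -0.06 for all genes. Zfand2a, a zinc finger protein that associates with the proteasome under stress, was at 26.9, 45.6, 34.5, 36 and 43.0 CPM in the 5 controls and at 166.6, 149.4 and 171.8 CPM in the 135-min samples. The groups were far apart and the increase was 2.13 ± 0.19 (log2, SE; edgeR adjusted p = 2.14e-05). Hsph1, a co-chaperone of the HSP110 family that exchanges nucleotide on Hsp70, went from 335.6 ± 68.5 (SD, n = 5) to 823.0 ± 48.5 CPM (SD, n = 3), an increase of 1.29 ± 0.16 (adjusted p = 0.000399). The constitutive Hsp70 gene Hspa8 was at 4104, 5620, 2843, 4287 and 5424 CPM in controls and at 8243, 8018 and 8135 CPM at 135 min. This was an increase of only 0.87 ± 0.20 (adjusted p = 0.0478), but from a level that made it the largest gain in CPM of any called gene.

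The inducible Hsp70 gene Hspa1b was at 31, 9.02, 54.7, 32.5 and 29.9 CPM in controls and at 104.0, 127.0 and 134.7 CPM at 135 min. All 135-min samples were above all controls, and the increase was 1.97 ± 0.44 (edgeR adjusted p = 0.039). Its near-identical neighbour Hspa1a, which can share reads with it, was at 0 to 0.351 CPM in controls and at 0.73 to 1.22 CPM at 135 min, so the level of each copy is uncertain. The call of Hspa1b was lost with a GC correction (adjusted p = 0.194) and when control replicate 1, 4 or 5 or any 135-min replicate was left out (adjusted p from 0.0879 to 0.173). Dnajb1, the J-domain co-chaperone of Hsp70 (1.14 ± 0.26, adjusted p = 0.0378), Bag3, which links Hsp70 to selective autophagy (0.87 ± 0.20, 0.04), and the factor Hsf2 (0.59 ± 0.13, 0.0393) also rose. Hsp90aa1 and Hsp90ab1, the cytosolic Hsp90 genes, had log2 fold changes of 0.39 and 0.38 (adjusted p = 0.515 and 0.246), and Hspd1 and Hspe1 of the mitochondrial chaperonin had 0.18 and 0.34 (0.775 and 0.447). None of the 8 subunits of the cytosolic chaperonin TRiC passed the test, by edgeR or DESeq2, and none had an unadjusted p under 0.05. Their median was 0.14. Between 2 and 8 heat shock genes were called when 1 library was left out, and 2 when only the 8 samples were fitted.

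Ube2o, a hybrid ubiquitin-conjugating and ligating enzyme, went from 65.5 ± 22.2 to 135.7 ± 2.74 CPM (log2 fold change 1.05 ± 0.23, adjusted p = 0.0363). Of 48 proteasome genes tested, Psme4, which encodes the activator PA200, rose (0.65 ± 0.15, adjusted p = 0.0478) and the others did not pass the test. The median of the 48 was 0.25 and 33 were positive, and 8 were called with the library set as a covariate.

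The NRF2 list held the largest increase of any list examined, that of Hmox1. Of 36 tested members of the antioxidant list, 7 rose and none fell, with 34 positive and a median of 0.40. Hmox1, the haem oxygenase that degrades haem to biliverdin, was at 56.1, 94.4, 37.5, 43.1 and 53.3 CPM in controls and at 478.4, 441.8 and 533.3 CPM at 135 min. The groups were far apart, and the fitted increase was 3.09 ± 0.30 (log2, SE; edgeR adjusted p = 5.4e-05). Osgin1, an oxidative stress-induced growth inhibitor, was rare in controls at 1.89, 3.81, 1.22, 0.544 and 1.36 CPM and reached 15.4, 16.4 and 13.3 CPM, an increase of 3.05 ± 0.45 (adjusted p = 0.00216). Slc7a11, the cystine transporter that feeds glutathione synthesis, was at 8.16, 10.5, 0.349, 8.22 and 9.4 CPM in controls and at 35.3, 37.1 and 25.2 CPM at 135 min. The increase of 2.11 ± 0.50 passed the test narrowly (adjusted p = 0.0478). It did not pass with the GC correction (0.0568), nor without control replicate 1, 4 or 5 or any 135-min replicate (0.0845 to 0.206).

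Gclc and Gclm, the catalytic and modifier subunits of glutamate-cysteine ligase, the rate-limiting enzyme, rose by 1.03 ± 0.14 and 1.57 ± 0.30 (edgeR adjusted p = 0.00136 and 0.0169). Gclc was at 34.5, 42.8, 38.9, 34.8 and 36.7 CPM in controls and at 78.0, 78.0 and 74.4 CPM at 135 min, with a gap between groups many times the spread in either. Gclm was at 17.6 CPM in control replicate 3, between 63.4 and 75.8 CPM in the other controls, and between 163.5 and 189.7 CPM at 135 min. Gsr, which reduces oxidised glutathione, rose by 0.91 ± 0.19 (adjusted p = 0.0245). Mafg, the small MAF partner of NRF2 on DNA, rose by 0.66 ± 0.12 (0.0153), and by 0.54 with adjusted p = 0.237 under the GC correction. Nqo1 and Txnrd1, also classical targets, had log2 fold changes of 0.34 and 0.57 that did not pass (adjusted p = 0.715 and 0.543), and Nfe2l2, which encodes NRF2 itself, had 0.23 (0.636). The count of 7 became 18 with the library set as a covariate, with Sqstm1 and Srxn1 among the added genes (adjusted p = 0.000255 and 0.00265), and lay between 3 and 11 when 1 library was left out.

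NRF2 with a small MAF protein binds the antioxidant response element, whose core is TGACNNNGC. Promoter windows of 250 bases before to 50 after a gene's start, from RefSeq on GRCm38.p6, were at hand for 29 of the 36 tested members, and 11 of the 29 held the core on either strand (37.9%), against 17.2% of 8226 tested genes with an entry and 12.4% of all 32851 windows. The core can contain the AP-1 site TGACTCA, which was not counted apart. Called members with the core upstream of the start were Gclm and Mafg, and Hmox1, Gclc and Gsr had no entry. The 250 upstream bases of Gclm and Mafg are shown 5′ to 3′ on the gene's strand with the match in capitals (in both it lies on the opposite strand). The Gclm window is chr3:122245307-122245556 (plus strand) and its match begins 134 bases before the start. The Mafg window is chr11:120633548-120633797 (minus strand) and its match begins 222 bases before the start.
Gclm: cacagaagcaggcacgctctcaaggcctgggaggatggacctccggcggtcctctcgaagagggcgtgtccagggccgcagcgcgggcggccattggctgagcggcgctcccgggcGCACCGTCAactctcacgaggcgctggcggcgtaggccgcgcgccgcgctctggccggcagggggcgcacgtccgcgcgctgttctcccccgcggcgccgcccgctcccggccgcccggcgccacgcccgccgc
Mafg: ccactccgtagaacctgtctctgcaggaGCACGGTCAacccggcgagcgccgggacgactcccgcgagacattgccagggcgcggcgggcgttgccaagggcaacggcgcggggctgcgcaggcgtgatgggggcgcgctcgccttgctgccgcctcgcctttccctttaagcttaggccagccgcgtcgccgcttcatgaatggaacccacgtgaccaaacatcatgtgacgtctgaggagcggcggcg
The comparison of motif shares is void for the 58 rising and 92 falling genes and for the 29 heat shock genes, because 74.1%, 79.3% and 23 of 29 of them had an entry, below the minimum coverage set for such a comparison, which the antioxidant list just passed. Among the called heat shock genes with an entry, Hsph1 held a heat shock element of 3 units (GAANNTTCNNGAA or TTCNNGAANNTTC) on the gene's strand at chr5:149636288-149636300, 16 to 28 or 37 to 49 bases after the start depending on which of 2 starts is used. It reads TTCtgGAAagTTC, with the units in capitals, and 0.523% of the tested genes with an entry held such a match. Hspd1, Hspe1 and Chordc1 of the heat shock list, which were not called, also held a match in their windows.

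Genes of the p53 response were the other leading group. Over 3 lists that cover feedback and arrest, apoptosis, and repair and metabolism, 11 of 46 tested members rose and none fell, with 35 positive and a median of 0.37. With the library set as a covariate 22 rose and 1 fell. When 1 library was left out, 4 to 5 rose in the feedback and arrest list and 0 to 5 in the repair and metabolism list, against 4 and 2. Mdm2, the ubiquitin ligase that degrades p53, was at 170.8, 111.6, 225.7, 156.5 and 150.0 CPM in controls and at 932.9, 1001 and 1064 CPM at 135 min. This was an increase of 2.62 ± 0.19 (log2, SE; edgeR adjusted p = 6.18e-06) and the groups were far apart. Cdkn1a, the cyclin-dependent kinase inhibitor p21, was at 20.2, 34.8, 25.3, 20.8 and 28.0 CPM in controls and at 124.3, 122.2 and 132.2 CPM at 135 min (2.29 ± 0.25, adjusted p = 0.000218). Trp53inp1, a nuclear protein that promotes p53 activity, was at 10, 10.1, 5.06, 10.7 and 12.8 CPM in controls and at 59.7, 69.9 and 51.5 CPM at 135 min (2.61 ± 0.28, 0.000129). Gtse1, a cell cycle protein that shuttles p53 out of the nucleus, rose as well (1.76 ± 0.25, 0.00173). The p53 gene itself, Trp53, was at 43.7 ± 31.2 CPM (SD, n = 5) in controls and 50.7 ± 1.11 CPM (SD, n = 3) at 135 min, a log2 fold change of 0.21 ± 0.52 that did not pass (0.924), and 0.74 with adjusted p = 0.0412 with the library set as a covariate.

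Cdkn1a was the only member of the 3 lists whose promoter window held a p53 response element, of 40 members with an entry, and 4 of the 8226 tested genes with an entry held one. This window was chosen for display after its match had been seen. The gene model spans 9744 bases in GENCODE vM1, more than positions 29230717 to 29237667 of mm9 given in the files. The start of this window may therefore lie upstream of the gene as quantified. The window is 1 of 2 of the gene in the table, lies at chr17:29090729-29090978 (plus strand, GRCm38.p6), and is shown with the match, which begins 73 bases before the start, in capitals. The bases tgacatgttc directly after the capitals are not marked, because they open with T where the pattern asks for R. The capitals show what the pattern finds and need not be the bases that p53 binds.
Cdkn1a: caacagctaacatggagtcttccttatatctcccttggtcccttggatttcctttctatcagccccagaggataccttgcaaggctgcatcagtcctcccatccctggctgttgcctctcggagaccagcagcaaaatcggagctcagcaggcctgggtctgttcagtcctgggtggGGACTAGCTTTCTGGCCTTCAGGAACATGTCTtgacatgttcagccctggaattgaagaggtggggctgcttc
A window without a match says only that these letters are not in it.

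Of 12 tested p53 targets of the apoptosis list, 5 rose, and 3 to 5 did when 1 library was left out. Eda2r, the receptor for the ectodysplasin isoform A2, was at 28.0, 22.1, 11.9, 28.7 and 35.7 CPM in controls and at 125.3, 148.6 and 116.3 CPM at 135 min (2.36 ± 0.28, log2, SE; edgeR adjusted p = 0.000399). Tnfrsf10b, the mouse TRAIL receptor, rose from 57.2 ± 9.83 (SD, n = 5) to 168.0 ± 11.3 CPM (SD, n = 3), and Apaf1, the scaffold of the apoptosome, rose from 28.8 ± 3.04 to 67.0 ± 2.69 CPM (adjusted p = 0.000399 for each). Fas, the receptor of Fas ligand, was at 3.13, 1.25, 5.23, 2.51 and 6.63 CPM in controls and at 13, 18.3 and 16.2 CPM at 135 min. Its increase of 2.09 ± 0.41 (adjusted p = 0.0201) did not pass without control replicate 1 or 4 or any 135-min replicate (0.0578 to 0.115). Aen, a nuclease that takes part in apoptosis, and Trp53bp2, a partner of p53 in apoptotic gene activation that is in none of the 3 lists, rose by 0.85 ± 0.19 and 0.79 ± 0.16 (0.0341 and 0.0238). Bbc3 and Bax, which act at mitochondria, had log2 fold changes of 0.80 and 0.36 (0.301 and 0.671). Zmat3, an RNA-binding protein, and the thiamine transporter Slc19a2 rose by 1.21 ± 0.24 and 1.28 ± 0.24 (0.021 and 0.0154).

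**Figure D2:**
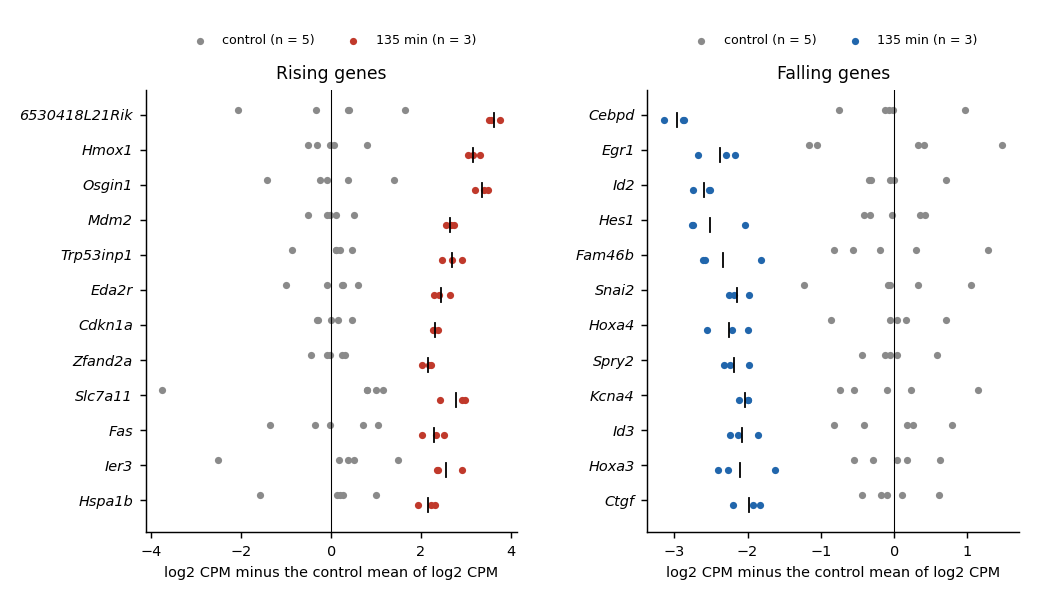
Log2 CPM of each sample minus the mean log2 CPM of the controls (horizontal axis) for the 12 rising genes (left) and 12 falling genes (right) with the largest changes. Grey points are the 5 controls, coloured points the 3 samples at 135 min and black ticks the 135-min means. The coloured points lie outside the range of the grey ones in every gene, which was a condition for choosing the genes. Single controls stray, such as Slc7a11 at 0.349 CPM in control replicate 3.

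The remaining rising genes had mixed roles. The uncharacterised gene 6530418L21Rik had the largest fold change, from 2.26, 1.35, 5.4, 0.408 and 2.23 CPM in controls to 20.3, 23.4 and 19.7 CPM at 135 min (3.27 ± 0.50, edgeR adjusted p = 0.00278). Ier3, an immediate-early gene that affects cell survival, was at 5.68, 11.2, 0.697, 4.55 and 5.22 CPM in controls and at 30.3, 20.6 and 20.9 CPM at 135 min (2.09 ± 0.45, 0.0311), and did not pass without control replicate 1, 4 or 5 or any 135-min replicate (0.0702 to 0.183). Ccl2, the chemokine that draws monocytes, was at 195.6, 104.2, 467.3, 179.5 and 147.6 CPM in controls and at 547.8, 662.9 and 744.2 CPM at 135 min (1.58 ± 0.35, 0.0341). Nfkbia, the inhibitor of NF-kB that NF-kB itself induces, rose from 39.5 ± 3.33 to 66.8 ± 4.76 CPM (0.76 ± 0.14, 0.0155, and 0.121 with the GC correction). These were the only 2 of 21 tested NF-kB and cytokine genes to rise, and the list's median was -0.10. Tet1, which oxidises methylated cytosine, Adm, which encodes the vasodilator adrenomedullin, the phosphatidate phosphatase gene Lpin1 and the ubiquitin ligase gene Smurf2, which targets TGF-beta signalling proteins, rose by 1.28, 1.16, 1.08 and 0.55 (0.00216, 0.0311, 0.00717 and 0.0245). Of the 58 rising genes, 26 were in none of the 50 gene lists examined.

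The C/EBP family member Cebpd, a factor of acute-phase and adipogenic programmes, had the largest decrease. It was at 112.6, 68.0, 222.8, 108.6 and 105.1 CPM in controls and at 15.7, 13 and 15.5 CPM at 135 min, which was -3.06 ± 0.32 on the log2 scale (SE; edgeR adjusted p = 0.000111). None of the 5 tested members of the family was positive, although only Cebpd passed. In the files the span of Cebpd overlaps that of 2310008H04Rik, whose reads cannot be told apart from it where strand is not used. Across the 92 falling genes, 51.1% were highest in control replicate 3 among the controls, against 34.3% of all tested genes, and 54 of the 58 rising and 86 of the 92 falling genes were called without control replicates 2 and 3.

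Of 28 tested targets of BMP and TGF-beta signalling, 6 fell and none rose, with 24 negative and a median of -0.44. Between 2 and 7 fell when 1 library was left out, 2 when only the 8 samples were fitted and 11 with the library set as a covariate. Id2 and Id3 encode helix-loop-helix proteins that lack a DNA-binding region and hold their partners away from DNA. Id2 was at 95.2, 78.3, 162.1, 98.4 and 79.8 CPM in controls and at 17.4, 17.2 and 14.8 CPM at 135 min (-2.64 ± 0.24, log2, SE; edgeR adjusted p = 2.83e-05). Id3 was at 180.3, 85.5, 259.9, 170.5 and 113.7 CPM in controls and at 34.5, 41.7 and 31.8 CPM at 135 min (-2.17 ± 0.34, 0.00335). The groups were well apart in both, whereas Id1, at 16.7 CPM in controls and 12 CPM at 135 min, had -0.48 (0.471). The inhibitory SMAD genes Smad6 and Smad7, which close a feedback loop on these pathways, fell by 2.0 ± 0.38 and 1.42 ± 0.23 on the log2 scale (0.0154 and 0.00474). Snai2 and Snai1, repressors known for epithelial-mesenchymal transition, fell too. Snai2 was at 76.9, 34.2, 164.7, 99.7 and 75.3 CPM in controls and at 17.6, 16.7 and 20.2 CPM at 135 min (-2.31 ± 0.40, 0.00815, and 0.0581 to 0.0765 without any 1 of the 135-min replicates), and Snai1 had -1.16 ± 0.27 (0.0489). The receptor genes Tgfbr1, Tgfbr2, Bmpr1a and Bmpr2 had log2 fold changes from -0.41 to 0.44 and none passed.

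Of the HOXA genes 4 fell, and they are neighbours. HOX genes encode homeodomain factors that keep a record of position along the body axis in fibroblasts. Hoxa2, Hoxa3, Hoxa4 and Hoxa5 lie side by side on chromosome 6 between positions 52112510 and 52154586 of mm9. Hoxa3 was at 20, 14.5, 27.5, 18.3 and 12.1 CPM in controls and at 3.36, 5.75 and 3.68 CPM at 135 min (-2.11 ± 0.30, log2, SE; edgeR adjusted p = 0.00181). Hoxa4 was at 4.08, 3.51, 5.93, 3.74 and 2.01 CPM in controls and at 0.915, 0.784 and 0.62 CPM at 135 min (-2.30 ± 0.42, 0.0123, and 0.063 to 0.105 without any 1 of the 135-min replicates). The span of Hoxa3 (52119061 to 52150941) contains that of Hoxa4 (52139686 to 52141702), so their reads may be shared. Hoxa2 went from 14.5 ± 6.0 (SD, n = 5) to 4.64 ± 1.25 CPM (SD, n = 3) and Hoxa5 from 54.9 ± 19.7 to 22.4 ± 1.66 CPM (0.0393 and 0.0341). Hoxa10, in the same cluster, had -1.46 ± 0.60 and did not pass (0.335), and 5 genes of the cluster were not tested because they were at 0 in at least 1 sample. None of the 5 tested HOXB, HOXC and HOXD genes passed by edgeR or DESeq2 or had an unadjusted p under 0.05, and the most abundant of them, Hoxd8, had -0.83 ± 0.51 (0.56).

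Other factors of mesenchymal patterning fell with them. The homeobox and patterning list had 6 of 51 tested members down and none up, with a median of -0.22. Between 1 and 8 fell when 1 library was left out, and 1 when only the 8 samples were fitted. Besides the HOXA genes the 6 were Foxf2 and Twist1 (-1.24 ± 0.21 and -1.02 ± 0.21, log2, SE; edgeR adjusted p = 0.00756 and 0.0245, and 0.0945 and 0.156 with the GC correction). The nuclear receptor gene Nr2f2, a regulator of mesenchymal and vascular development, had one of the tightest changes of all. It was at 211.8, 201.9, 210.1, 214.1 and 231.2 CPM in controls and at 87.9, 93.2 and 86.3 CPM at 135 min (-1.26 ± 0.11, 2.12e-05). Its relative Nr2f1 fell from 116.1 ± 72.8 to 29.5 ± 2.8 CPM (-1.97 ± 0.42, 0.031, and 0.0511 with the GC correction). Osr1, a zinc finger factor of the limb and kidney mesenchyme, the HOX cofactor gene Meis1 and the osteoblast factor gene Runx2 fell by 1.91 ± 0.30, 1.14 ± 0.24 and 0.94 ± 0.19 on the log2 scale (0.00393, 0.0309 and 0.0245). Hes1, the Notch-responsive repressor, was at 17.0, 12.5, 10.1, 9.52 and 16.2 CPM in controls and at 3.11, 1.88 and 1.9 CPM at 135 min (-2.51 ± 0.31, 0.000399). It was the only 1 of 10 tested Notch pathway genes to change.

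Krüppel-like factors, zinc finger proteins that respond quickly to signals, had 4 of 12 tested members down and none up, with a median of -0.65, and 2 to 5 down when 1 library was left out. Klf10, which TGF-beta induces, was at 78.4, 66.0, 66.2, 63.9 and 63.0 CPM in controls and at 18.2, 19.7 and 15.2 CPM at 135 min (-1.93 ± 0.15, log2, SE; edgeR adjusted p = 1.38e-05), with little spread in either group. Klf6, Klf2 and Klf3 had -1.35, -1.56 and -1.16 (0.00181, 0.0488 and 0.0311), and Klf2 had adjusted p = 0.153 with the GC correction. Klf4 and Klf9 did not pass, with -1.02 and -0.24 (0.0888 and 0.455).

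Targets of the YAP coactivator, which responds to cell spreading and stiffness, had 4 of 14 tested members down, none up and a median of -0.50, and 2 to 5 down when 1 library was left out. Ctgf, a secreted matricellular protein, was at 184.4, 261.7, 159.3, 150.8 and 126.0 CPM in controls and at 47.9, 45.0 and 37.2 CPM at 135 min (-2.03 ± 0.24, log2, SE; edgeR adjusted p = 0.00036). Every sample at 135 min was well below every control. Amotl2 and Lats2, negative regulators of YAP that YAP induces, had -1.75 ± 0.22 and -0.63 ± 0.15 (0.000399 and 0.0432), and the ankyrin repeat gene Ankrd1 had -1.62 ± 0.29 (0.0095). Cyr61, at 112.1 ± 73.5 CPM (SD, n = 5) in controls and 42 ± 2.8 CPM (SD, n = 3) at 135 min, had -1.42 ± 0.40 and did not pass (0.121).

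Of 21 tested immediate-early genes, Egr1, Nr4a1 and Myc fell and Ier3 rose, and the median was -0.78. Between 1 and 4 fell when 1 library was left out. Egr1, a zinc finger factor induced within minutes of growth factor addition, was at 56.9, 119.6, 19.3, 20.8 and 54.0 CPM in controls and at 8.79, 9.56 and 6.71 CPM at 135 min (-2.70 ± 0.58, log2, SE; edgeR adjusted p = 0.031). It varied widely among controls, and its call was lost without control replicate 1 or 5 or any 135-min replicate (0.0576 to 0.182). Nab2, the corepressor that EGR1 induces, fell by 1.84 ± 0.27 (0.0021). Myc was at 164.5, 168.8, 253.6, 135.3 and 117.0 CPM in controls and at 51.4, 61.3 and 58.5 CPM at 135 min (-1.55 ± 0.23, 0.0021). Fos and Junb had -0.97 and -1.17 and did not pass (0.659 and 0.395), and Jun was at 209.0 CPM in controls and 313.6 CPM at 135 min (0.58, 0.167).

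The MAPK feedback list had 3 of 19 tested members down and none up, with a median of -0.41, and 2 to 4 down when 1 library was left out. Spry2, an inhibitor of receptor tyrosine kinase signalling, was at 24.0, 39, 26.8, 19.2 and 25.2 CPM in controls and at 6.59, 5.22 and 5.54 CPM at 135 min (-2.22 ± 0.27, log2, SE; edgeR adjusted p = 0.000399). Dusp10, a phosphatase of JNK and p38, and Errfi1, an inhibitor of the EGF receptor, had -1.54 ± 0.23 and -1.28 ± 0.27 (0.0021 and 0.0271). Dusp1 and Dusp6 had -1.08 and -0.25 and did not pass (0.0953 and 0.737).

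Of 26 tested growth factor ligands and related genes, 3 fell and none rose, with 8 positive and a median of -0.36 (1 to 3 fell when 1 library was left out). Fgf10, a mesenchymal growth factor for epithelia, and Bdnf, a neurotrophin, had -1.63 ± 0.36 and -1.37 ± 0.27 (log2, SE; edgeR adjusted p = 0.0341 and 0.0192). Gas1, a membrane-anchored Hedgehog co-receptor that marks growth arrest, was at 267.0, 279.5, 301.4, 285.8 and 488.5 CPM in controls and at 99.6, 95.0 and 78.4 CPM at 135 min (-1.83 ± 0.24, 0.000596). Ptx3, a secreted pattern recognition molecule, had -1.81 ± 0.35 (0.0175). The receptor genes Fzd2, Fgfr2 and S1pr3, for Wnt, FGF and sphingosine-1-phosphate, had -1.68, -0.85 and -0.82 (0.0113, 0.0162 and 0.0292). Fzd2 was the 1 called gene of 17 tested WNT genes, and S1pr3 the 1 of 40 tested G protein signalling regulators. Of 25 tested matrix proteases and inhibitors, 11 were positive, the median was -0.02 and Adamts1 and Adamts5 alone fell, with -1.44 and -0.86 (0.0175 and 0.00731), and 0 to 4 fell when 1 library was left out. None of the 20 tested collagen genes passed, 1 rose by DESeq2, 2 had an unadjusted edgeR p under 0.05, and their median was 0.04. Kcna4, a voltage-gated potassium channel, was at 40.3, 29.4, 95.2, 50.6 and 25.8 CPM in controls and at 10.8, 10.8 and 9.89 CPM at 135 min (-2.20 ± 0.37, 0.0067, and 0.0552 to 0.0658 without any 1 of the 135-min replicates). Fam46b, a poly(A) polymerase family member, was at 9.32, 33.3, 16.9, 7.82 and 12 CPM in controls and at 2.26, 3.92 and 2.3 CPM at 135 min (-2.49 ± 0.48, 0.0175, and 0.0581 to 0.138 without any 1 of the 135-min replicates). Of the 92 falling genes, 48 were in none of the 50 lists.

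**Figure D3:**
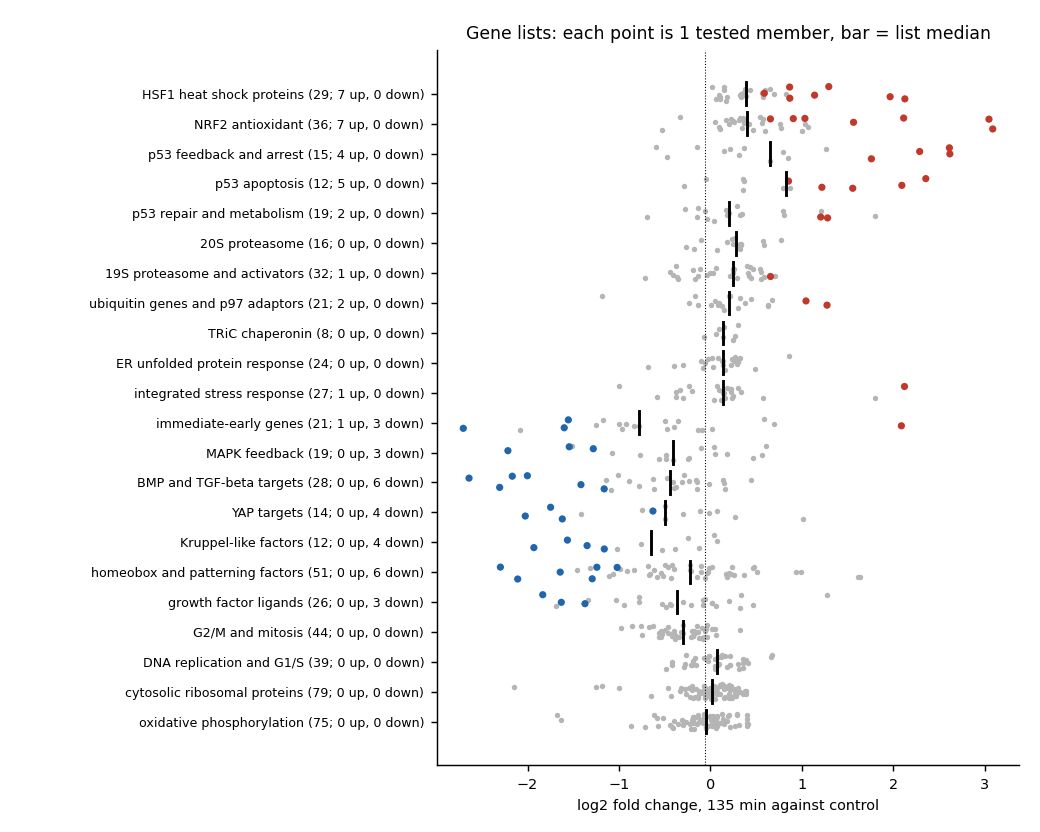
Log2 fold change at 135 min against control (horizontal axis) of every tested member of 22 gene lists (rows, with the number tested and the numbers up and down). Red and blue points passed the test, grey points did not, black bars are list medians and the dotted line is the median of all tested genes, -0.06, and the called members of the heat shock, antioxidant and p53 lists lie to the right while those of the BMP and TGF-beta, YAP and Krüppel-like lists lie to the left.

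Several programmes had no or almost no called genes at this time. Over all tested genes, however, only 0.564% rose and 0.895% fell. A list of 24 to 44 genes would therefore often hold no called gene. The lack of calls does not set such a list apart from the other tested genes. The same holds for the shorter lists without calls named above. None of the 24 tested genes of the ER unfolded protein response passed with edgeR, with 3 higher at an unadjusted p under 0.05 and 1 called higher by DESeq2, and their median was 0.14. Hspa5 (BiP), the main ER chaperone, had a log2 fold change of 0.31 (edgeR adjusted p = 0.573) and Xbp1 had 0.86 (0.505). In the integrated stress response, 1 of 27 genes rose, and this was Slc7a11, which is also in the antioxidant list. Atf4, Ddit3 and Asns had 0.14, -0.38 and 0.21 (0.671, 0.736 and 0.726). Sesn2, a sestrin that p53 also induces, had 1.80 (0.161), and 2.39 with adjusted p = 1.23e-05 with the library set as a covariate. Over 346 genes of ribosomes, translation and mitochondria none passed with edgeR, 6 were higher and 7 lower at an unadjusted p under 0.05, and DESeq2 called 1 higher. The median was 0.02, and 8 rose and 6 fell with the library set as a covariate. None of the 44 tested mitotic genes passed with edgeR either, although 40 were negative, the median was -0.30, 9 were lower at an unadjusted p under 0.05, DESeq2 called 1 lower and the fit with the library set as a covariate 6. The 39 genes of DNA replication and the G1/S transition had a median of 0.07, and none passed with edgeR or DESeq2, with 2 higher and 1 lower at an unadjusted p under 0.05. A gene that did not pass may still have changed.

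Rising and falling genes differed in the structure of their gene models. In GENCODE vM1 the transcript with most exons had a median of 4 exons in falling genes, 8 in rising genes and 10 in all tested genes. Of the 90 falling genes with an entry, 39 had at most 3 exons (43.3%), against 7 of 57 rising genes (12.3%) and 10.5% of all tested genes. Falling genes were also more compact, with 44.4% spanning under 10 kb against 21.1% of rising genes and 22.8% of all tested genes. Their exonic length was much the same, with medians of 3690 bases for falling, 3838 for rising and 3915 for all tested genes, as was their exonic GC content, with medians of 49.3%, 48.8% and 49.1%. These are descriptions of the called genes and were not tested. Among the falling genes named above, Spry2, Fam46b and Kcna4 had 2 exons, Id2 and Id3 had 3 and Klf10 had 8. Among the rising genes Mdm2 and Slc7a11 had 12 exons and Fas had 9, but 6530418L21Rik, Ier3 and Hspa1b had 2 and Cdkn1a had 3. The entry for Cebpd in this annotation is a pseudogene model that ends before the span in the files does, so its exon number is not given.

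**Figure D4:**
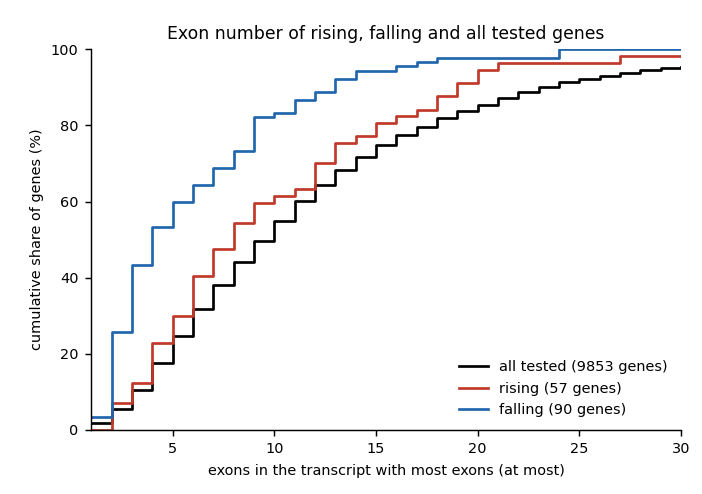
Cumulative share of genes in percent (vertical axis) with at most the given number of exons in the transcript with most exons (horizontal axis, drawn to 30), for falling (blue, 90 genes), rising (red, 57 genes) and all tested genes (black, 9853 genes). At 3 exons the falling curve has reached 43.3%, the rising curve 12.3% and the curve of all genes 10.5%.

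The 135-min samples were also compared directly with the samples taken before and after them. Against 45 min, 19 genes were higher (0.185% of those tested) and 25 were lower (0.243%). Higher at 135 min were Mdm2 and Hmox1, by 2.18 ± 0.22 and 2.29 ± 0.35 on the log2 scale (edgeR adjusted p = 0.000401 and 0.00679), and Fas and Hspa1b, by 3.11 ± 0.51 and 2.76 ± 0.54 (0.0118 and 0.0375). Fas was at 2.23, 0.964 and 2.15 CPM and Hspa1b at 17.3, 25.4 and 11.4 CPM in the 45-min samples, within or below the range of the controls. The DNA polymerase kappa gene Polk was 1.69 higher than at 45 min (0.0405) and had a log2 fold change of 1.21 against control that just failed the test (0.0515). Lower at 135 min than at 45 min were Klf10 and Nr2f2, by 1.38 and 1.12 (0.00143 and 0.000401), and Spry2, Ctgf and Id2, by 1.90, 1.71 and 1.66 (0.00637 for each). These comparisons use the same 135-min samples as the comparison with control and are not independent of it.

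Against 405 min, 290 genes were higher at 135 min (2.82%) and 230 were lower (2.24%). This comparison is tied to the library sets, since 3 of the 4 samples at 405 min and none at 135 min were of the GC-rich set, and 207 genes were higher and 171 lower with the set as a covariate. With only the other set, 1 sample at 405 min remained and no gene was called. Mdm2 was at 932.9, 1001 and 1064 CPM at 135 min and at 356.4, 426.5, 404.4 and 320.5 CPM at 405 min, lower by then in every sample (1.41 ± 0.20 higher at 135 min, edgeR adjusted p = 0.0022). Hspa1b was at 9.81, 14.1, 29.3 and 10.7 CPM at 405 min, in the range of the controls (2.94 ± 0.49 higher at 135 min, 0.00632). The antioxidant genes did not share this order. Gsr and Ptgr1 were lower at 135 min than at 405 min by 1.06 and 0.98 (0.0113 and 0.00227), whereas Hmox1 was 1.30 higher (0.0295). Slc7a11 was at 72.0, 79.7, 50 and 54.3 CPM at 405 min, above all 135-min samples. Among the falling genes, Spry2, Fam46b, Dusp10 and Bcl6, a transcriptional repressor, were lower at 135 min than at 405 min by 1.86, 2.46, 1.64 and 1.52 (0.0028, 0.0131, 0.00227 and 0.00543), and their 405-min means lay within the range of the controls. Nr2f2 was at 89.8, 85, 90.6 and 85 CPM at 405 min, and Kcna4 at 10.6, 11.8, 8.21 and 8.3 CPM, both overlapping the 135-min samples.

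**Figure D5:**
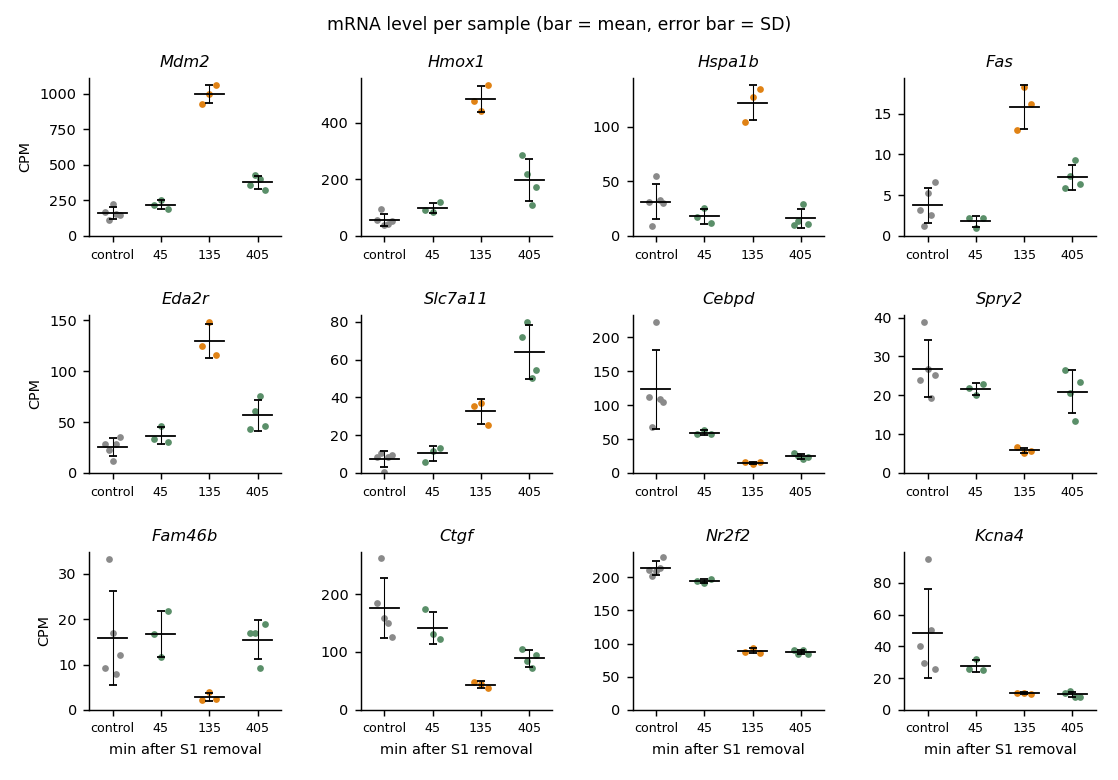
CPM per sample (vertical axes, linear from 0) in controls and at 45, 135 and 405 min after S1 removal for 6 rising and 6 falling genes. Points are samples, bars are means and error bars SD, with the 135-min samples in orange, and Mdm2, Hspa1b and Fas are highest at 135 min while Spry2 and Fam46b are lowest there.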

How the data were processed

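Poly(A) RNA of DD-sfGFP NIH3T3 cells was sequenced in 15 samples (5 controls, 3 at 45 min, 3 at 135 min and 4 at 405 min after S1 removal). Per the labels and the study's methods, the authors aligned reads to mm9 and quantified RefSeq genes on DNAnexus, and the aligner is not given in the sources used here. The deposited tables hold expected counts, which need not be whole and were rounded here, for 20207 genes, and RPKM values made by the authors, which were joined here but support no test. Columns with the authors' Z scores and a ratio of scaled RPKM were not used.

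Counts were tested with edgeR 4.0.16 (R 4.3.3; TMM scaling, quasi-likelihood test, all 15 samples, group as the only term; the study's methods name edgeR and the threshold but not these settings) for the 10276 genes whose count was 1 or more in each sample, with Benjamini-Hochberg adjustment and a threshold of 0.05. DESeq2 1.42.0, other filters, a GC offset, library sets, a replicate block and left-out libraries were the alternatives. The fit was tested on simulated data. Total counts of the 8 samples lay between 6652539 and 28696476, and 22 replicate pairs all differed by more than counting noise (chi-square per degree of freedom from 12.0 to 274.4), so none was taken for repeat deposits of 1 library, which does not show that they came from separate cultures. Fits over genes give SE across samples, and counting error is smaller. Library sets were split by a GC slope of 0.2. Exon numbers, GC content and the gene spans compared between groups came from GENCODE vM1 on NCBIM37, the assembly of mm9, and printed mm9 coordinates from the files. Promoter windows came from RefSeq on GRCm38.p6 (8226 of 10276 tested genes matched), and no coordinate was converted between builds. For 940 genes the files gave more than 1 coordinate, so none is printed for them.

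Genes with per-sample values include, by rule, the 12 with the largest log2 fold change in each direction among called genes with a mean count of at least 10 in the higher group and no overlap between groups. Other genes were taken from 50 gene lists or, among the genes in no list, named after their values were seen. The members of this comparison, the rule and the lists were chosen with earlier results of these data known.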

Additional observations from a re-analysis of the deposited data

Results flagged for a closer look

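Control replicate 3 was the lowest of the 5 controls by a wide gap in 2 of the 24 genes with the largest changes. Its log2 CPM was 2.37 for Trp53inp1, with 0.737 of the whole range between it and the next control, and -1.1 for Slc7a11, with 0.921 of the range. Such gaps also arise by chance in a small share of groups, and this library was the shallowest of the 8.

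The effect differed between times in the following genes, all by the edgeR test of the difference. Those higher at 135 min than at 45 min were Fas by 3.11 ± 0.51 (log2, SE; adjusted p = 0.0118), Hspa1b by 2.76 ± 0.54 (0.0375), Hmox1 by 2.29 ± 0.35 (0.00679), Mdm2 by 2.18 ± 0.22 (0.000401), Eda2r by 1.83 ± 0.33 (0.0245), Zfand2a by 1.66 ± 0.22 (0.00354) and Trp53inp1 by 1.63 ± 0.32 (0.0378). Those with a negative difference from 45 min were Egr1 at -3.15 ± 0.62 (0.0378), Fam46b at -2.57 ± 0.51 (0.0405), Cebpd at -2.01 ± 0.32 (0.00941), Spry2 at -1.9 ± 0.29 (0.00637), Ctgf at -1.71 ± 0.25 (0.00637), Id2 at -1.66 ± 0.25 (0.00637) and Hoxa3 at -1.6 ± 0.32 (0.0405).

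Against 405 min, Hspa1b was higher at 135 min by 2.94 ± 0.49 (edgeR adjusted p = 0.00632), Mdm2 by 1.41 ± 0.20 (0.0022), Hmox1 by 1.3 ± 0.31 (0.0295) and Eda2r by 1.2 ± 0.30 (0.0322). The differences were negative for Fam46b at -2.46 ± 0.49 (0.0131), Spry2 at -1.86 ± 0.27 (0.0028), Hoxa3 at -1.39 ± 0.30 (0.0196), Id2 at -1.27 ± 0.23 (0.0104), Hes1 at -1.2 ± 0.30 (0.0342) and Ctgf at -1.04 ± 0.23 (0.0219). The 405-min samples were mostly of the GC-rich library set, and the part of that set in these differences was not tested gene by gene.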

How the results depend on the processing

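The counts of called genes were not stable. Over 480 values of the 24 genes with the largest changes under the alternatives, none reversed, 411 stayed past the threshold and 69 did not, of which the fit of only the compared groups and the replicate block gave 10 each. These 24 were picked for large changes with no overlap between groups, and the alternatives reuse the same samples. A reversal was therefore unlikely from the outset, and its absence does not speak for other genes. The counts against control (58 up, 92 down) became 161 and 269 with DESeq2, 32 and 48 with no filter, 16 and 24 with only the compared groups, 314 and 501 with the library set as a covariate, 217 and 367 with set 1 only, and 117 and 144 with the GC offset. Of 2 alternatives chosen after seeing the data, leaving out control replicates 2 and 3 gave 100 and 143, and the covariate with filterByExpr 273 and 397. Leaving out 1 library gave 20 to 115 up and 22 to 182 down.

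With the replicate number as a block there were 11 up and 20 down against control, 1 higher and 4 lower than at 45 min, and 10 and 5 against 405 min. The block with the GC offset gave 41 and 44, 8 and 7, and 105 and 94. Same-numbered samples of control and 135 min had a mean r of -0.0531 between their deviations over 3 number pairs, from -0.168 to 0.0589. Over all groups, 19 same-numbered pairs had a mean r of -0.11, from -0.706 to 0.437. The 3 pairs of this comparison are too few to settle whether the numbers pair the samples.

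Against 45 min (19 higher, 25 lower) the counts were 57 and 64 with DESeq2, 29 higher with only the compared groups, 45 and 60 with the covariate, 35 higher with the GC offset, 54 and 62 without control replicates 2 and 3, and 38 and 53 with the covariate and filterByExpr. Leaving out 1 library gave 3 to 8 and 2 to 14. Against 405 min (290 and 230) they were 672 and 799 with DESeq2, 151 lower with filterByExpr, 124 and 83 with no filter, 1263 and 1703 with only the compared groups, 0 and 0 with set 1 only (1 sample at 405 min), 442 and 400 with the GC offset, 1152 and 1552 without control replicates 2 and 3, and 181 and 136 with the covariate and filterByExpr. Leaving out 1 library gave 23 to 603 and 19 to 581, the highest without 405-min replicate 3. The cause was not tested. Control replicate 3, at 6652539 counts, was the shallowest library, and its zeros were not limited to rare genes. Zfp592 was at 20.8, 46.8, 15.7 and 19.1 CPM in the other controls and at 0 in this one. Tgfb2 was at 13.3, 17.5, 16.3 and 12.8 CPM there and also at 0 here. Such genes were left out of the main test, whatever their change. Among them were Btg2 of the p53 lists, higher at 135 min than in every control, and Ddb2, which overlapped the controls.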
